A study of Mus musculus with 12 samples.

Results

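The genes that write and erase methyl groups on histone lysines were followed in 12 tumor libraries, 6 from Old tumors and 6 from Young tumors. Of the 47643 genes in the deposited tables, 41 were chosen by name. They are the protein-coding genes called Kmt, Setd, Setdb or Kdm with a number or letter, together with Setbp1, Ash1l, Nsd1, Ezh1, Ezh2, Dot1l, Ehmt1, Ehmt2, Suv39h1 and Suv39h2. The sex-linked Kdm5c, Kdm5d and Kdm6a were left out by the rule. The names were put together after it was known that many of these genes had more RNA in Old tumors, so every Old against Young value of theirs describes the set and tests nothing. Of the 41 genes, 40 had enough reads to be fitted, and the exception was Kdm4d, a demethylase of histone H3 lysine 9 (H3K9) used mainly in testis. Kdm4d had 2 to 9 counts in Old tumors and 0 to 9 in Young tumors.

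The study asked how the age of the host affects a pancreatic tumor and its surroundings. Both groups are pieces of pancreatic tumor grown from KPC4662, a single epithelial cell line from a mouse pancreatic cancer. The groups are labelled Old tumor and Young tumor, and the difference between them is the age of the host. No label states the hosts' age in weeks, strain, sex or site of implantation. Whether each piece was taken from a separate mouse is likewise unstated, so p-values measure the spread between pieces.

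The tails of histones carry methyl groups on defined lysines, and the site decides how the mark is read. Methylation of H3 lysine 4 (H3K4), lysine 36 (H3K36) and lysine 79 (H3K79) is found at active promoters, enhancers and transcribed gene bodies, while methylation of H3K9, H3 lysine 27 (H3K27) and H4 lysine 20 (H4K20) is found in silent or compacted chromatin. Most writers carry a catalytic SET domain, Dot1l being an exception. Erasers are either flavin (FAD) dependent amine oxidases or Jumonji (JmjC) dioxygenases that need iron, oxygen and 2-oxoglutarate. In human tumors KMT2C, KMT2D and KDM6A are among the chromatin genes often mutated in pancreatic cancer. Several members carry the name without being known histone enzymes: Setbp1 binds the protein SET, Setd3 methylates a histidine of actin, and Kmt2e is not established as an active methyltransferase.

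Many of these genes start in CpG islands. The 250 bases before the RefSeq start (build GRCm38.p6) were read for the 29 of 41 genes with an entry, which gave 40 windows. The median window held 22.5 CpG dinucleotides, against 6 over all 32536 promoters. The stretches before Ezh2, Ezh1 and Kmt2d are shown because Ezh2 and Ezh1 had fold changes of opposite sign and Kmt2d had the largest difference among the histone writers. All are on the minus strand and are written 5′ to 3′ in the direction of transcription, and capitals mark the letters CCAAT or their complement ATTGG. They lie at chr6:47595059-47595183 (Ezh2, 125 bases), chr11:101226464-101226713 (Ezh1) and chr15:98871206-98871455 (Kmt2d). The stretch shown for Ezh2 lies before its RefSeq start but inside the gene's span in GENCODE, between exons of a transcript that starts further upstream, and bases in annotated exons were left out.
Ezh2: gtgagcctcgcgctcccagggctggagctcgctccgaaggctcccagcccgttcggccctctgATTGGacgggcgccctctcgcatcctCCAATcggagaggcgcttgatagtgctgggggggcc
Ezh1: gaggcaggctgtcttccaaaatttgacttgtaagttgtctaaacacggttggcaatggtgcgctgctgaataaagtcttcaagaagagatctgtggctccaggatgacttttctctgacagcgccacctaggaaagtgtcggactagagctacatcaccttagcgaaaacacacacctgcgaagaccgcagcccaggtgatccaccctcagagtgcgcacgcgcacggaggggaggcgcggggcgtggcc
Kmt2d: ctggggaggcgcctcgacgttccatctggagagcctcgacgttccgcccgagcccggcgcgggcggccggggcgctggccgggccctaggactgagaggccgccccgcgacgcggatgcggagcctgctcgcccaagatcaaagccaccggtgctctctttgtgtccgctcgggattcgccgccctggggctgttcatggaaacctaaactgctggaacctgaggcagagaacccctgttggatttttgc
The printed stretch of Ezh2 held 2 CCAAT matches, while those of Ezh1 and Kmt2d held 0. At least 1 match on either strand stood in the windows of 12 of the 29 genes and in 33.8% of all promoters. The letters GGGCGG or their complement, the core of an SP1 GC box, stood in the windows of 19 of the 29 genes and in 33.0% of all promoters. The letters TTTCCCGC and TTTGGCGC, both searched on both strands as E2F sites, stood in 0 of the 29 and in 1.31% of all promoters.

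Old tumor libraries held 17.8M to 24.1M counts and Young tumor libraries 20.1M to 23.1M. On the principal components of all tested genes, Old tumor 1 and Old tumor 4 lay far out on the component with 18.7% of the variance and Young tumor 2 on that with 14.8%. The component between them, with 16.4%, separated the groups, Old tumors lying at -43.9 to -5.5 and Young tumors at 9.0 to 31.8. The labelled cell type is epithelial, and the summed level of 6 epithelial markers was 4180 to 6383 CPM (counts per library size, TMM-scaled) in Old tumors and 4531 to 8443 CPM in Young tumors. The pieces also held other cells. The sum of 6 fibroblast markers was 825 to 6259 CPM in Old tumors, and 925 to 2298 CPM in Young tumors. All 6 fibroblast, all 4 pericyte and all 5 endothelial markers had a log2 fold change above 0, with medians of 0.67, 0.68 and 0.65, and all 5 T cell markers one below 0, with a median of -0.98. Of 2 fitted natural killer markers edgeR called 1, Gzma, lower. None of the 13 marker lists was at 0 in every library. In such bulk samples fewer cells of a type and less RNA per cell cannot be told apart, and the part of cell mixture in the values below was not tested.

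Most of the writers and erasers had more RNA in Old tumors, by small amounts. The log2 fold change of Old over Young tumor was above 0 for 32 of the 40 fitted genes, as it was for 54.2% of all 16013 genes fitted. Its median was 0.21, against 0.03 over all genes. With edgeR's quasi-likelihood test and Benjamini-Hochberg adjustment over all 16013 genes, 4 members were higher at an adjusted p under 0.05: Setbp1, Kmt2d, Ash1l and Setd5. The same test called 0.793% of all genes higher. In the GENCODE annotation of GRCm38 these 4 genes lie at chr18:78750380-79109391 (Setbp1), chr15:98831669-98871204 (Kmt2d), chr3:88950622-89079375 (Ash1l) and chr6:113077365-113153435 (Setd5). It called 0 members lower, against 1.47% of all genes. At an unadjusted p under 0.05, 21 members were higher and 2 were lower, against 10.7% and 10.4% of all genes. DESeq2 called 11 members higher and 0 lower, against 3.58% and 5.41% of all genes, and limma-voom 9 and 0, against 2.61% and 3.49%. In 6 of the 40 genes every Old tumor library lay above every Young tumor library, which was so in 0.993% of all genes, and these were Setbp1, Kmt2d, Ash1l, Setd5, Nsd1 and Kdm7a. In 0 of them did every Old tumor library lie below, against 1.97% of all genes. The count of 4 depended on single libraries, as did the count of all genes called higher, which was 127. The count of members was 0 without Old tumor 2, Old tumor 3 or Young tumor 1, where 2, 2 and 2 of all genes were called higher. Dropping Old tumor 1 gave 8 and dropping Young tumor 3 gave 5, where 433 and 185 of all genes were called higher. Without any other single library it was 1, with 9 to 33 of all genes called higher. Setbp1 was called in 9 of these 12 fits, and Kmt2d, Ash1l and Setd5 in 2 each.

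**Figure D1:**
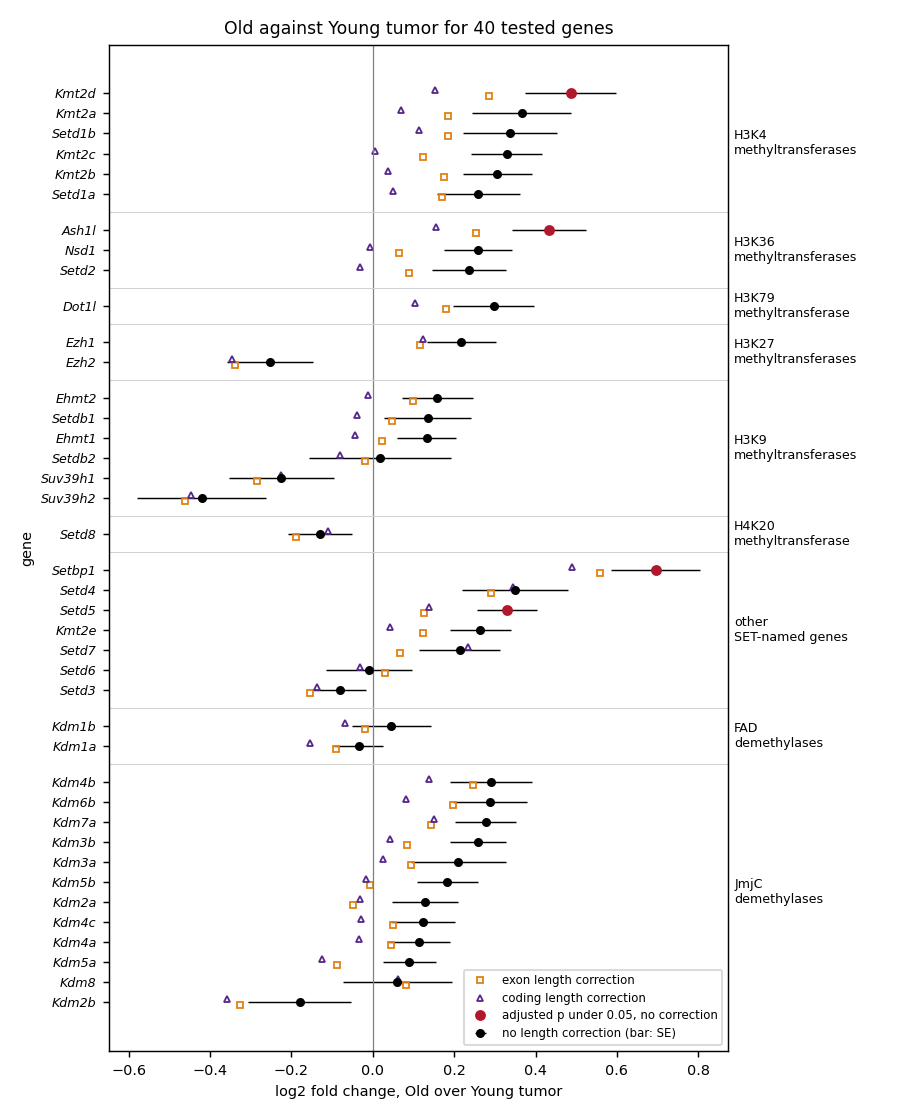
Log2 fold change of Old over Young tumor (x axis) for the 40 fitted genes, grouped by the site they act on, with the standard error as a bar. Red dots are the 4 genes at an adjusted p under 0.05 without length correction, and open squares and triangles are the same fold changes after correction for exon length and for coding length, most of which lie closer to 0 than the dots.

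All 6 H3K4 methyltransferases, the catalytic subunits of the COMPASS complexes, had a log2 fold change above 0, against 54.2% of all genes. Their values were 0.26 to 0.49 with a median of 0.33. The edgeR test called 1 of them, Kmt2d, against 0.793% of all genes called higher. All 6 lie in the decile with the longest coding sequences, where the median over all genes was 0.21. Kmt2d, which monomethylates H3K4 at enhancers, had a lowest, median and highest level of 123, 143 and 164 CPM in Old tumors, against 73.2, 102 and 120.3 CPM in Young tumors. The groups did not overlap, Old tumor 1 and Old tumor 5 being the lowest of the Old tumors and Young tumor 5 the lowest of all. Its log2 fold change was 0.49 (SE 0.11). Kmt2c, its paralog at enhancers, had 76.3 to 105 CPM in Old tumors, against 61.8 to 81.4 CPM in Young tumors, and a log2 fold change of 0.33 (SE 0.09). Kmt2a, the mixed-lineage leukemia enzyme that keeps Hox genes on, had 101, 120.2 and 143 CPM in Old tumors, against 65.5, 96.7 and 108 CPM in Young tumors, and a log2 fold change of 0.37 (SE 0.12). For Kmt2c and Kmt2a alike, 5 of the 6 Old tumors lay above the highest Young tumor. The log2 fold changes of Kmt2b, Setd1b and Setd1a, of which the Setd1 enzymes make most H3K4 trimethylation at promoters, were 0.31, 0.34 and 0.26. In TPM (transcript abundances on the authors' scale), the 6 genes summed to 136 ± 11.2 TPM in Old tumors and 97.7 ± 15.6 TPM in Young tumors (SD, n = 6 each). On log2(TPM + 0.1) the median difference over all genes was itself 0.15 in favour of Old tumors.

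The writers of H3K36 and H3K79, marks of transcribed gene bodies, were also all above 0, and all lie in the same coding length decile. Ash1l, which dimethylates H3K36, had 93.6, 115 and 142 CPM in Old tumors, against 76.4, 86.3 and 91.7 CPM in Young tumors. The groups did not overlap, with Old tumor 1 at the low end of the Old tumors and Old tumor 3 at the high end. Its log2 fold change was 0.43 (SE 0.09). Nsd1, another H3K36 dimethylase, had 104, 107 and 121 CPM in Old tumors, against 72.5, 95.4 and 103 CPM in Young tumors, and a log2 fold change of 0.26 (SE 0.08). Its groups were separated by a narrow gap between the lowest Old tumor and the highest Young tumor. Setd2, the trimethylase that travels with RNA polymerase, had 86.8 to 113 CPM in Old tumors, against 74.1 to 99.5 CPM in Young tumors. Dot1l, the H3K79 methyltransferase, had 35.4, 42.6 and 46.5 CPM in Old tumors, against 27.3, 33.7 and 42.3 CPM in Young tumors, and a log2 fold change of 0.30 (SE 0.10). The groups of Setd2 and of Dot1l overlapped.

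The log2 fold changes of the H3K27 methyltransferases had opposite signs, and neither gene passed the threshold in edgeR, DESeq2 or limma-voom. On log2(TPM + 0.1) limma called Ezh1 higher, with 312 of all 16013 genes called higher, and on log2(TPM + 1) it did not call Ezh1. Ezh2 and Ezh1 are alternative catalytic subunits of Polycomb repressive complex PRC2, Ezh2 being typical of dividing cells and Ezh1 of resting ones. Ezh1 had 33.6, 34.8 and 38.0 CPM in Old tumors, against 25.2, 31.7 and 33.8 CPM in Young tumors, and a log2 fold change of 0.22 (SE 0.08). Ezh2 had 39.5, 50.3 and 61.4 CPM in Old tumors, against 53.0, 57.5 and 73.2 CPM in Young tumors, and a log2 fold change of -0.25 (SE 0.11). In each gene a single Old tumor overlapped the Young tumors. The ratio of Ezh2 to Ezh1 in TPM, taken within each library, had a lowest, median and highest value of 2.83, 3.60 and 3.87 in Old tumors, against 4.35, 5.19 and 7.42 in Young tumors. On the TPM scale the ratio separated all Old from all Young libraries. The CPM fold changes of Ezh2 and Ezh1 lie closer together than their difference in TPM. Their transcripts are close in length, with exons of 6678 bp for Ezh2 and 7440 bp for Ezh1 and coding lengths of 2238 bp and 2250 bp. After correction for exon length the log2 fold changes were -0.34 for Ezh2 and 0.12 for Ezh1, and after correction for coding length -0.35 and 0.12.

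The H3K9 methyltransferases, which act in heterochromatin and silencing of repeats, had a median log2 fold change of 0.08 over 6 genes, against 0.03 over all genes. Suv39h2, which trimethylates H3K9 at constitutive heterochromatin, had 8.61, 9.96 and 12.6 CPM in Old tumors, against 10.97, 12.4 and 20.3 CPM in Young tumors, and a log2 fold change of -0.42 (SE 0.16). Its Young tumor 2 stood above all other libraries, and the groups overlapped. Suv39h1, its paralog, had 83.8, 137 and 153 CPM in Old tumors, against 119, 159.8 and 171 CPM in Young tumors, and a log2 fold change of -0.22 (SE 0.13). All 6 Old tumors lay below the Young tumor median, which was so for no other fitted member, and Old tumor 4 stood far below the rest. Leaving out Old tumor 4 brought the fold change of Suv39h1 to -0.12 on the log2 scale. Ehmt2 and Ehmt1, the G9a and GLP enzymes that dimethylate H3K9, had log2 fold changes of 0.16 (SE 0.09) and 0.13 (SE 0.07). Setdb1, the trimethylase that silences endogenous retroviruses, and Setdb2 had 0.13 (SE 0.11) and 0.02 (SE 0.18).

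The H4K20 monomethylase, listed as Setd8 and now called Kmt5a, had 126, 143 and 160.1 CPM in Old tumors, against 139.6, 151 and 187 CPM in Young tumors, and a log2 fold change of -0.13 (SE 0.08). The groups overlapped, and Young tumor 2 was the highest library. Setd8 and Ezh2 are known to be used more in dividing cells. All 15 genes of a cell-cycle list had a log2 fold change below 0, with a median log2 fold change of -0.51. The edgeR test called 7 of the 15 lower, against 1.47% of all genes, among them Ube2c (-0.86, SE 0.14, adjusted p = 0.0239) and Aurka (-0.75, SE 0.12). Their summed level was 556 to 863 CPM in Old tumors and 916 to 1182 CPM in Young tumors, without overlap. The part of cell division in the values of these members was not tested.

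**Figure D2:**
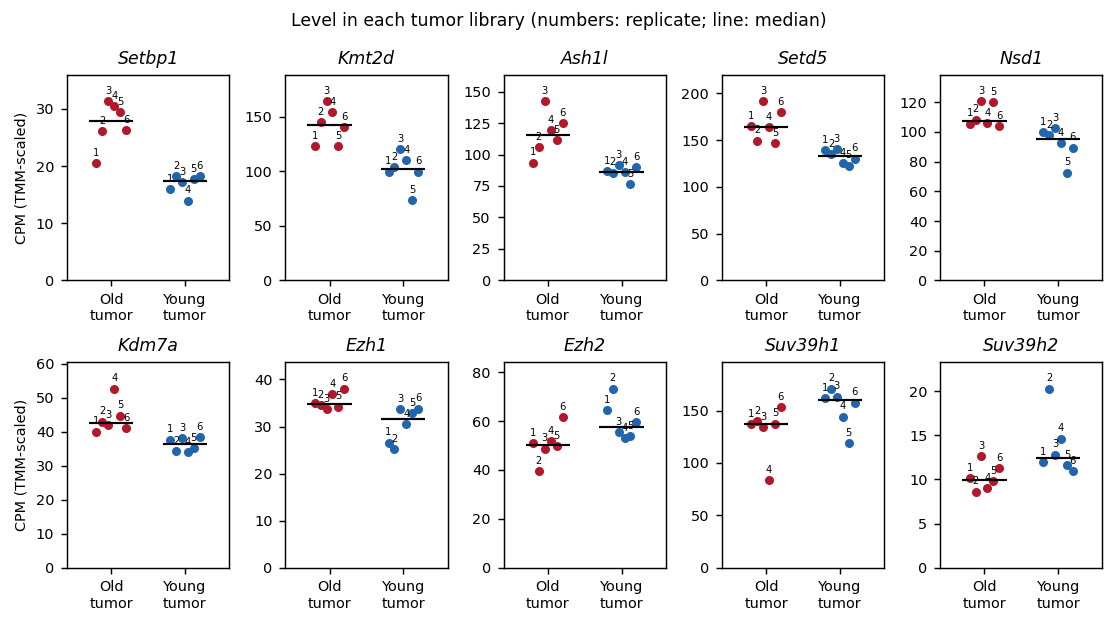
CPM of 10 members in each library (y axis), Old tumors in red and Young tumors in blue, with the replicate number at each dot and a line at the group median. Setbp1, Kmt2d, Ash1l, Setd5, Nsd1 and Kdm7a do not overlap between the groups, and the lower row shows Ezh1 above and Ezh2, Suv39h1 and Suv39h2 below their Young tumor medians.

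The other SET-named genes held the largest difference of the set. Setbp1, an AT-hook protein that binds SET and is mutated in myeloid malignancies in humans, had 20.6, 27.8 and 31.3 CPM in Old tumors, against 13.9, 17.5 and 18.3 CPM in Young tumors. The groups did not overlap, with Old tumor 1 alone near the Young tumors. Its log2 fold change was 0.69 (SE 0.11). Markers of fibroblasts, pericytes and endothelium were also above 0. The summed levels of the markers of each of these cell types overlapped between the groups. The fibroblast sum was 825 to 6259 CPM in Old tumors and 925 to 2298 CPM in Young tumors. The part of these cells in the value of Setbp1 was not tested. Setd5, a SET-domain protein found with deacetylase complexes, had 147, 165 and 191 CPM in Old tumors, against 123, 133 and 140.0 CPM in Young tumors, and a log2 fold change of 0.33 (SE 0.07). The groups did not overlap. Setd4 and Setd7, which methylate lysines of histones or other proteins, had log2 fold changes of 0.35 (SE 0.13) and 0.21 (SE 0.10), and Kmt2e, a PHD and SET protein, 0.26 (SE 0.07). Setd6, which methylates a subunit of NF-kB, and the actin enzyme Setd3 had -0.01 (SE 0.11) and -0.08 (SE 0.07).

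Without length correction, the differences among the erasers were smaller. The median log2 fold change was 0.13 over 14 fitted demethylases and 0.24 over the 19 methyltransferases with a named histone site. Their median coding lengths were 3370.5 bp and 4620 bp. After correction for exon length the medians were 0.05 and 0.10, and after correction for coding length -0.022 and -0.007. The difference between erasers and writers was not tested. Of the FAD enzymes, Kdm1a (LSD1), which removes mono- and dimethylation of H3K4, had 77.9, 80.9 and 88.8 CPM in Old tumors, against 77.1, 84.3 and 90.9 CPM in Young tumors, and a log2 fold change of -0.03 (SE 0.06). Its paralog Kdm1b had 0.05 (SE 0.10). The groups of both overlapped almost fully.

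Of the 12 fitted JmjC demethylases 11 were above 0, against 54.2% of all genes, with a median of 0.16. In this group edgeR called 0 genes, with 5 at an unadjusted p under 0.05, all higher, against 10.7% of all genes higher at that p. DESeq2 and limma-voom called 3 each, against 3.58% and 2.61% of all genes called higher. Kdm3b, an H3K9 demethylase, had 63.5, 72.5 and 79.3 CPM in Old tumors, against 57.2, 60.5 and 65.2 CPM in Young tumors, and a log2 fold change of 0.26 (SE 0.07), with 1 Old tumor inside the Young range. Kdm7a, which demethylates H3K9 and H3K27, had 40.1, 42.5 and 52.7 CPM in Old tumors, against 33.9, 36.4 and 38.5 CPM in Young tumors, and a log2 fold change of 0.28 (SE 0.08). Its groups did not overlap, and Old tumor 4 was the highest. Kdm6b, the H3K27 demethylase induced in inflammation, had 80.9 to 102 CPM in Old tumors, against 58.6 to 83.8 CPM in Young tumors, and a log2 fold change of 0.29 (SE 0.09). Kdm4b, a demethylase of H3K9 and a target of hypoxia signalling, also had 0.29 (SE 0.10), and Kdm4a and Kdm4c of the same family 0.11 (SE 0.08) and 0.12 (SE 0.08). Kdm3a, another hypoxia target that acts on H3K9, had 0.21 (SE 0.12), and the H3K4 demethylases Kdm5b and Kdm5a 0.18 (SE 0.07) and 0.09 (SE 0.06). Of the H3K36 demethylases that bind unmethylated CpG, Kdm2a had 0.13 (SE 0.08) and Kdm2b -0.18 (SE 0.13), and Kdm8, a JmjC hydroxylase, had 0.06 (SE 0.13).

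The genes of this set are long, and longer genes were higher in Old tumors across the whole table. The median exon length of the 40 genes was 8170.5 bp, against 4022 bp over all genes. Over all genes the median log2 fold change was -0.18 in the decile with the shortest exons and 0.16 in the decile with the longest, which starts at 9469 bp. That longest decile held 18 of the 40 members, whose median was 0.27. By coding length the longest decile starts at 3501 bp, held 22 of the 40, and had a median of 0.21 over all its genes and of 0.26 over its members. Across the 40 members, which share the same 12 libraries, the log2 fold change had a Spearman correlation of 0.58 with exon length and of 0.68 with coding length, a description without a test. It was 0.22 with the genomic span and 0.29 with GC content.

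**Figure D3:**
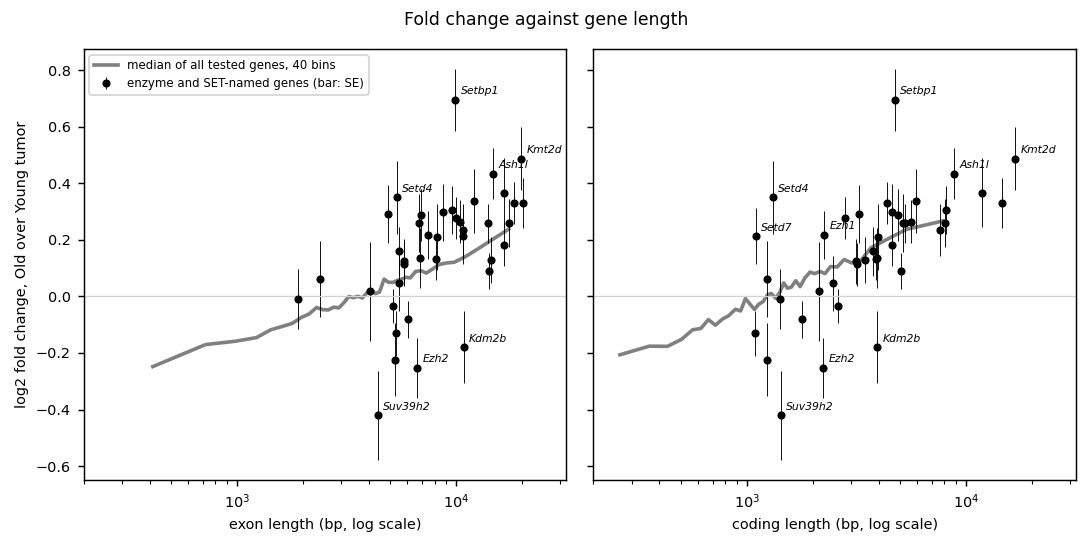
Log2 fold change of Old over Young tumor (y axis) against exon length (left) and coding length (right), both on log axes in bp, for the 40 genes as dots with standard errors and for all tested genes as a grey line of medians in 40 bins. The line climbs with length in both panels, and Setbp1, at 0.69, lies furthest above it.

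A fit that removes each library's own trend with length shrank the differences. With exon length, the median of the 40 genes was 0.08, against -0.02 over all genes, 28 of 40 were above 0, and edgeR called 1 of them higher, Setbp1, against 0.0937% of all genes, and called 0 lower, against 0.6% of all genes. At an unadjusted p under 0.05, 4 members were then higher and 5 lower, against 5.56% and 11.1% of all genes. With coding length, the median was -0.001, against -0.005 over all genes, and edgeR called 0 of them higher, against 0.0312% of all genes. At an unadjusted p under 0.05, 3 members were then higher and 4 lower, against 5.93% and 8.74% of all genes. The H3K4 methyltransferases, with a median exon length of 14369 bp, had a median of 0.18 after the exon correction and of 0.06 after the coding correction, against 0.33 without. Kmt2d was at 0.28 and 0.15, Kmt2c at 0.12 and 0.005, and Ash1l at 0.25 and 0.16. Setbp1 kept more of its difference, at 0.56 and 0.49, and Setd5 was at 0.13 and 0.14. Setd4, whose exons span 5379 bp and whose coding sequence spans 1317 bp, was at 0.29 and 0.34. The JmjC group was at 0.07 and 0.005. Both corrections take out any difference that runs with length, whatever its source.

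Of the members with a fold change below 0, most lay further from 0 after the corrections. Suv39h2 was at -0.46 after the exon correction and -0.45 after the coding correction, Suv39h1 at -0.29 and -0.23, and Kdm2b at -0.33 and -0.36. Kdm2b has exons of 10869 bp, within the longest decile, and lay below the trend of genes of its length. Exceptions were Setd8, at -0.19 and -0.11, and Setd6, at 0.03 and -0.03.

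The trend differed between libraries. The slope of log2 CPM on log2 exon length, taken over all tested genes as the deviation from the mean of the 12 libraries, was 0.0348 ± 0.0315 in Old tumors and -0.0348 ± 0.0303 in Young tumors (SD, n = 6 each). The median deviation of the 40 genes was 0.0901 ± 0.0702 log2 units in Old tumors and -0.0906 ± 0.0680 in Young tumors. Old tumor 1 had both a flat slope of 0.0027 and a median deviation of -0.0139, between Young tumor 3 and Young tumor 2. Young tumor 5 had the steepest negative slope, -0.0809, and the lowest median deviation, -0.209. Old tumor 4 had a flat slope of -0.0016 and a median deviation of 0.102. Old tumor 5 had the steepest positive slope, 0.0784, and a median deviation of 0.0700, below that of Old tumor 3, Old tumor 6 and Old tumor 4.

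**Figure D4:**
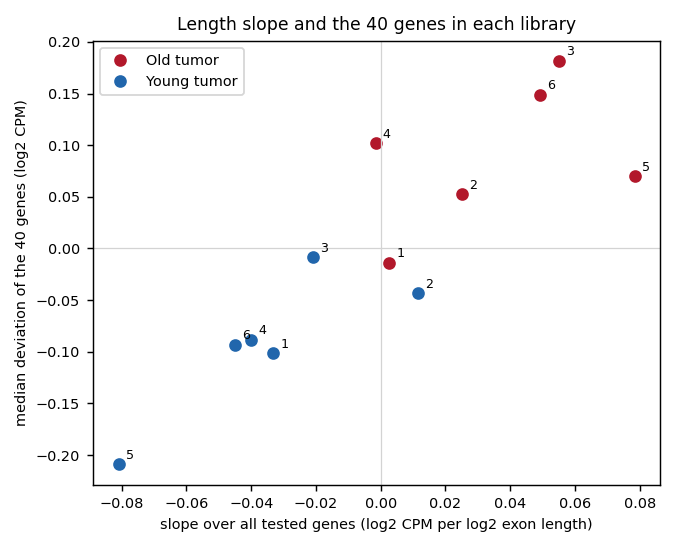
Slope of each library over all tested genes (x axis, log2 CPM per log2 exon length) against the median deviation of the 40 genes in that library (y axis, log2 CPM), Old tumors in red and Young tumors in blue. Libraries with steeper slopes tend to lie higher, Old tumor 1 sits beside the Young tumors, and Old tumor 4 lies higher than its flat slope of -0.0016.

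Paralogs could be compared by level, which does not use the age of the host. On the TPM scale the most abundant member was Ehmt2, at 107 to 165 TPM over the 12 libraries with a mean of 138, followed by Setd8 at 96.7, Suv39h1 at 82.7, Setd3 at 71.1 and Ezh2 at 65.3. The lowest were Kdm4d at 0.14, Setbp1 at 3.60, Setdb2 at 4.06 and Kdm8 at 4.12 TPM. In 13 of 13 paralog pairs the levels differed, with the same gene higher in all 12 libraries of each pair. Other pairs of genes were not compared, so this count describes levels and is not a trait of paralogs. A two-sided exact sign-flip permutation test over the libraries, on log2(TPM + 0.1), gave an adjusted p = 0.000488 for each pair, the smallest this design allows. Kmt5b and Kmt5c did not match the name rule and were not analysed here.

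In most pairs one enzyme dominated. Suv39h1 had a lowest, median and highest level of 49.7, 86.3 and 95.9 TPM over the 12 libraries and Suv39h2 5.29, 6.83 and 12.8 TPM, a difference of 3.44 ± 0.31 on the log2 scale (SD, n = 12), or 10.9-fold. Ezh2 had 51.2, 66.0 and 76.8 TPM and Ezh1 10.4, 15.7 and 19.7 TPM, a log2 difference of 2.12 ± 0.41. Ehmt2 exceeded Ehmt1 by 1.96 ± 0.15 and Setdb1 exceeded Setdb2 by 2.63 ± 0.50 on the log2 scale. Among the erasers Kdm1a exceeded Kdm1b by 2.16 ± 0.20, Kdm2a exceeded Kdm2b by 2.78 ± 0.32 and Kdm3a exceeded Kdm3b by 1.90 ± 0.28. Closer pairs were Kdm4a below Kdm4b by 0.33 ± 0.17, Kdm5a above Kdm5b by 0.61 ± 0.33 and Kdm4a above Kdm4c by 0.70 ± 0.13. Among the H3K4 writers, Kmt2b exceeded Kmt2a, the log2 difference of Kmt2a to Kmt2b being -1.26 ± 0.14, Kmt2d exceeded Kmt2c, that of Kmt2c to Kmt2d being -0.68 ± 0.19, and Setd1a exceeded Setd1b by 0.83 ± 0.21. These levels rest on the transcript lengths used in the authors' TPM.

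**Figure D5:**
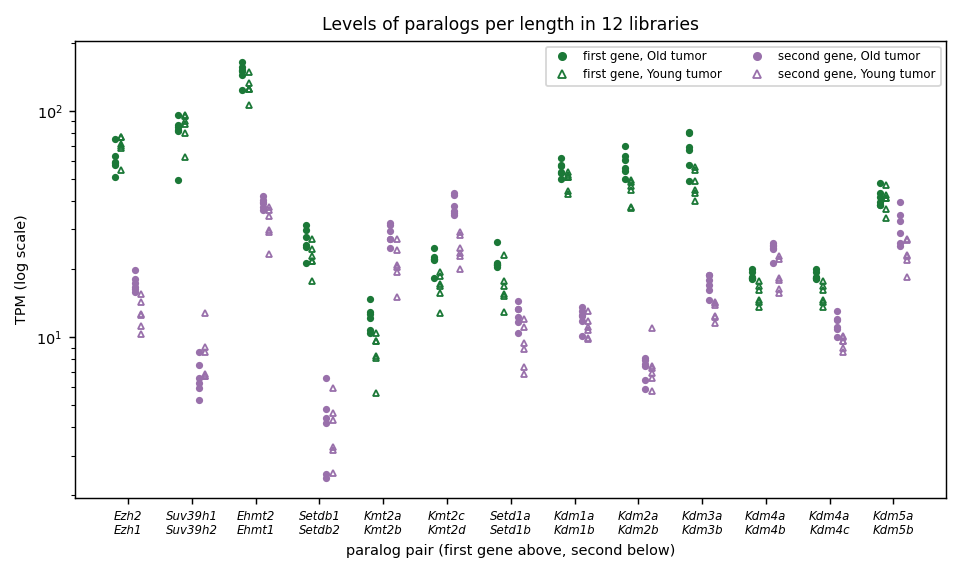
TPM (y axis, log scale) of both genes of 13 paralog pairs in 12 libraries, the gene named first in green and the other in purple, filled for Old tumors and open for Young tumors. The genes of a pair are furthest apart for Suv39h1 and Suv39h2 and closest for Kdm4a and Kdm4b.

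The balance within a pair differed most between the groups for the H3K27 writers. The log2 ratio of Ezh2 to Ezh1 was 1.80 ± 0.17 in Old tumors and 2.44 ± 0.32 in Young tumors (SD, n = 6 each), 0.64 lower in Old tumors. Kdm2a to Kdm2b was 3.01 ± 0.21 in Old tumors and 2.55 ± 0.24 in Young tumors, with overlap, and Kdm5a to Kdm5b was 0.42 ± 0.25 in Old tumors and 0.79 ± 0.30 in Young tumors, also with overlap. The ratios of the other 10 pairs differed by less, from -0.23 for Kmt2c to Kmt2d to 0.22 for Setdb1 to Setdb2, and their groups overlapped. These ratios are in TPM, share libraries with the fold changes above and are a description.

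The partners of these enzymes, many with shorter transcripts, are given as counts and medians without a test against the enzymes. Of 15 COMPASS partners 6 were above 0, with a median log2 fold change of -0.05 and a median exon length of 5082 bp. The H3K4 methyltransferases need the core subunits Wdr5, Rbbp5, Ash2l and Dpy30 for full activity. These 4 had -0.13 (SE 0.08), -0.08 (SE 0.11), -0.05 (SE 0.06) and -0.21 (SE 0.12). Of 9 fitted PRC2 partners 3 were above 0, with a median of -0.07, and Eed and Suz12, without which PRC2 has no activity, had -0.15 (SE 0.07) and -0.07 (SE 0.08). Of 10 partners in heterochromatin 6 were above 0, with a median of 0.05. Other lysine methyltransferases and demethylases outside the naming rule were above 0 in 8 of 14, with a median of 0.08, the smallest p belonging to the JmjC gene Jmjd1c at 0.25 (SE 0.06). Arginine methyltransferases were above 0 in 1 of 7 and lysine deacetylases in 12 of 16, with medians of -0.09 and 0.11. Over these 6 lists edgeR called 0 of 71 genes in either direction, against 0.793% and 1.47% of all genes called higher and lower. At an unadjusted p under 0.05, 15 were higher and 8 lower, against 10.7% and 10.4% of all genes. DESeq2 called 4 higher and 3 lower, against 3.58% and 5.41%, and limma-voom 2 higher and 0 lower, against 2.61% and 3.49%. After the exon length correction the medians were -0.11, -0.14 and -0.04 for the partners of COMPASS, PRC2 and heterochromatin. In that fit 1 gene, the histone chaperone Rbbp4, was called lower, against 0.6% of all genes.

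Among lysine acetyltransferases edgeR called 1 gene higher and 1 lower, and among DNA methylation genes 1 higher and 0 lower. Over all genes it called 0.793% higher and 1.47% lower. DESeq2 called 2 acetyltransferases higher and 1 lower, and limma-voom 1 and 1. Both called 3 DNA methylation genes higher and 0 lower. Their shares over all genes were 3.58% and 5.41% for DESeq2, and 2.61% and 3.49% for limma-voom. Of 14 acetyltransferases 13 were above 0, with a median of 0.14. Kat6b, which acetylates H3 lysine 23, rose by 0.47 (SE 0.09, adjusted p = 0.0327) and Hat1, which acetylates new histone H4, fell by 0.44 (SE 0.10, adjusted p = 0.0437). Of 10 DNA methylation genes 8 were above 0, with a median of 0.18, and Tet2, which oxidises methylcytosine, rose by 0.44 (SE 0.10, adjusted p = 0.0482). With the exon length correction the adjusted p of these genes in the edgeR test was 0.116 for Kat6b, 0.083 for Hat1 and 0.209 for Tet2.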

How the data were processed

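RNA came from pieces of pancreatic tumor, 6 libraries labelled Old tumor and 6 labelled Young tumor, with an RNA integrity number above 8, poly(A) selection and a directional library, per the labels' protocols. Reads went through cutadapt 2.3, STAR 2.7.0d and RSEM 1.3.1 on mouse build mm10, per the submitters' processing notes, with the annotation and strand setting not given in the sources used here. Expected counts and TPM were deposited. The deposited expected counts were whole in 86.0% to 88.2% of entries (tolerance 0) and were rounded here, and the deposited TPM served for levels between genes. RSEM divides reads among similar genes, so close paralogs may share reads.

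The fit was edgeR 4.0.16 (R 4.3.3): TMM, filterByExpr, quasi-likelihood F test, two-sided, Benjamini-Hochberg over 16013 genes, adjusted p under 0.05. The standard error is the log2 fold change divided by the square root of F. CPM values are TMM-scaled, with a prior count of 2 on the log2 scale. The length correction enters as an offset a natural spline with 4 degrees of freedom of each library's deviation on log2 exon length from GENCODE (GRCm38), which held 15971 of the tested genes. The version with coding length was added after the data were seen. Of the 16013 tested genes 13955 had a coding length, and the others entered that fit without a length offset. Paralog levels were tested by sign flips over 12 libraries with scipy 1.17.1. Alternatives were scaling by total counts, RLE or the upper quartile, no filter and a filter of 1 CPM in 6 libraries, a GC offset, DESeq2 1.42.0, limma-voom (limma 3.58.1), log2(TPM + 1) and log2(TPM + 0.1), an adjusted p under 0.10, a replicate block and each library left out. The edgeR fit, with and without the exon length offset, was tested on simulated counts. Their length trend was drawn at random for each library, and a trend that runs with age was not simulated. Library totals of 17.8M to 24.1M counts limit the precision of genes with few counts.

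Libraries of the same number did not deviate together (correlations of -0.23 to 0.14), and the labels do not link them, so the fit had no block. The members, gene lists and tests were chosen with earlier results of these data known. Range and median are given for members past the threshold, for the member of smallest p in each of 9 roles and for described paralogs. At most 4 genes of the other lists are named, apart from the core subunits of COMPASS and PRC2, which were named for their function.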

Additional observations from a re-analysis of the deposited data

Results flagged for a closer look

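In 5 of 80 groups tested (40 members in each age), a single library lay apart from the other 5, and chance alone flags about 1 group in 20, here 4. Suv39h1 had 83.8 CPM in Old tumor 4, against 134 to 153 CPM in the other Old tumors. Setd1a had 89.0 CPM in Old tumor 3, against 72.2 to 75.8 CPM in the others. Kdm7a had 52.7 CPM in Old tumor 4, against 40.1 to 44.7 CPM in the others. Among Young tumors, Setd8 had 187 CPM in Young tumor 2, against 139.6 to 154 CPM in the others, and Kdm3a had 149 CPM in Young tumor 5, against 101 to 118 CPM in the others.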

How the results depend on the processing

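The count of members called higher, 4, was the same with the 3 other scalings and the stricter filter. It was 11 with DESeq2 and 9 with limma-voom, where 573 and 418 of all genes were called higher, against 127. On log2(TPM + 1) and log2(TPM + 0.1) it was 6 and 8, with 291 and 312 of all genes called higher. At an adjusted p under 0.10 it was 10, and without Old tumor 1 and Old tumor 5 it was 7, with 530 and 343 called higher. It was 2 with the GC offset, 1 with no filter, 1 with the exon length offset and 0 with the coding length offset. These fits called 73, 41, 15 and 5 of all genes higher. With the replicate block it was 0, and 0 with the block and the length offset together, and each of these fits called 1 gene in all. Leaving out a single library gave 0 to 8, and 0 to 1 with the length offset. The count of members called lower was 0 in every alternative. The median log2 fold change, 0.21, was 0.083 with the length offset, -0.0012 with the coding length offset, 0.084 with the block and the length offset, 0.35 on log2(TPM + 1) and 0.37 on log2(TPM + 0.1), where the median over all genes was 0.13 and 0.15. Leaving out a single library gave 0.17 to 0.24, and 0.059 to 0.11 with the length offset. The cause of the differences between tools was not tested. Of 1560 values of single members under the alternatives, 220 moved by more than the spread within an age, and none changed sign while called. All 13 paralog pairs kept their order. Few reads limit Kdm4d, which entered only the fit with no filter, and Setdb2 and Kdm8, the next lowest.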

Other observations

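The median SD of log2 CPM within an age was 0.16 over the 40 genes and 0.24 over all genes, which include genes of lower level. The whole set summed to 1342 ± 73.4 TPM in Old tumors and 1141 ± 92.8 TPM in Young tumors (SD, n = 6 each). The set was chosen with its direction known, so a separation of the groups by this sum tests nothing. The lowest Old tumor, Old tumor 1 at 1259 TPM, lay barely above the highest Young tumor, Young tumor 3 at 1256 TPM. On that scale the median difference over all genes was itself 0.15 on log2(TPM + 0.1). The JmjC demethylases alone summed to 317 ± 26.5 TPM in Old tumors and 249 ± 14.9 TPM in Young tumors.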
